A study of Mus musculus with 9 samples.

Results

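Conventional dendritic cells (cDC) of the spleen come in a pair of main subsets, cDC1 and cDC2, and 10 genes that mark cDC1 were followed here across the states of cDC2. The genes were Xcr1, Cadm1, Wdfy4, Naaa, Itgae, Cd8a, Cd36, Snx22, P2ry14 and Gpr33. They were taken by symbol out of 19938 genes with a transcript cluster of their own on the array, a transcript cluster being the probes laid against 1 gene locus. All 10 were on the array, and for Wdfy4, which had 2 clusters, the brighter one was used. The question was which of these genes cDC2 gained or lost with activation, or without the transcription factors BATF and BATF3.

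The data were 9 Affymetrix gene arrays of RNA from cDC sorted from the spleens of 129SvEv/Tac mice. Of these, 8 arrays were from cDC2, with 2 arrays for each of 4 groups: activated Batf-/- Batf3-/- (DKO), resting DKO, activated wild type (WT) and resting WT. The ninth was from resting WT cDC1. Activated cells had received IFN-gamma at 100 ng/ml for 1 h, followed for another 3 h by LPS of E. coli (1 µg/ml). The DKO mice lacked both genes in all cells, as far as the labels describe them, and no label gives the age of the mice, a pooling of animals or a culture of the resting cells. Whether replicate arrays stem from different mice is not given, so p-values reflect only how far these samples spread, possibly for technical reasons.

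The cDC1 take up dead cells and cross-present their antigens to CD8 T cells, whereas cDC2 mainly present antigen to CD4 T cells. Development of cDC1 needs the transcription factors IRF8 and BATF3. BATF and BATF3 are AP-1 proteins that bind DNA with a JUN partner, often together with IRF4 or IRF8 at a composite site. Among the 10 genes are receptors for soluble signals (Xcr1, Gpr33, P2ry14), surface proteins of adhesion and uptake (Cadm1, Itgae, Cd8a, Cd36) and proteins of the cell interior (Wdfy4, Naaa, Snx22).

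Stretches of 250 bases before the start sites were searched for the letters of AP-1 and IRF motifs, using RefSeq sequences of assembly GRCm38.p6. Of the 10 genes, 8 had an entry, and Cadm1 and Itgae had none. Printed here are Gpr33, which rose with activation, and 2 of the 4 P2ry14 stretches, those that hold the AP-1 letters TGANTCA. Capitals mark the matches. The Gpr33 stretch is chr12:52028064-52028313, minus strand. The P2ry14 stretches with these letters are chr3:59153493-59153742 (distal start) and chr3:59131329-59131578 (inner start), both minus strand.
Gpr33: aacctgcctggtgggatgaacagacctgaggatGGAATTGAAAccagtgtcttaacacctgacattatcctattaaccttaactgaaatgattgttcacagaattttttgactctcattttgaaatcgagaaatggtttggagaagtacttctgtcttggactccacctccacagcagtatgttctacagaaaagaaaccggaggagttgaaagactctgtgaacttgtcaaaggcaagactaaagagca
P2ry14 distal start: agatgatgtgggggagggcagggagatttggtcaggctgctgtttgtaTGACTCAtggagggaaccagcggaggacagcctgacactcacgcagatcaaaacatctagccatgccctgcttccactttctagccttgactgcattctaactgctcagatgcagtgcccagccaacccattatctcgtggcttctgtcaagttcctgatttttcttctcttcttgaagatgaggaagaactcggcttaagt
P2ry14 inner start: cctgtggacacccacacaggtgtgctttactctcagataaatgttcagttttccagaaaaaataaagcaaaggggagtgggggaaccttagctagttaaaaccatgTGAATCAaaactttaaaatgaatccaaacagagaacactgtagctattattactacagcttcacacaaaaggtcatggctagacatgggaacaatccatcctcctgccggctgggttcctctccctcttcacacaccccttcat

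In Gpr33 the letters of an ETS and IRF composite (GGAA and GAAA, 2 bases apart) stood at -217 to -208 from the start site. In P2ry14 the AP-1 letters stood at -202 to -196 and, before the inner start, at -144 to -138, and the stretches of its other two starts held none of the letters searched. Cd8a held the ETS and IRF letters at 2 places, -158 to -149 and -136 to -127, on the opposite strand. Among all 32851 stretches of this length, searched on both strands, 2.3% held the ETS and IRF letters and 6.75% those of AP-1. Composites of IRF and AP-1 letters (GAAA directly before TGANTCA, in 0.1% of stretches, and TTTC 4 bases before TGANTCA, in 0.0974%) were found in none of the 8 genes with an entry. Nor was the interferon response core (TTTC and TTTC, 2 bases apart, in 2.98%). The AP-1 letters are contained in both composites. These matches describe the letters of the window and were not tested against the expression values.

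The 9 arrays had median intensities of 53.4 to 55.6, and the Pearson r between the replicate arrays of a group, taken over genes that are not independent of each other, was 0.969 to 0.980. A gene was tested where the mean of at least 1 group exceeded the median of all single-gene clusters, a log2 intensity of 5.94, here called the brightness threshold. This left 10728 genes. No detection call was used here, so a level below the threshold is called dim and not absent. All 10 genes were tested, but Xcr1, Itgae, Cd36 and Snx22 (4 of 10) passed the filter through the cDC1 array alone, so their higher level in cDC1 was fixed by the filter, and their differences among cDC2 groups are between dim readings. Precision is limited by having 2 arrays in a group.

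The labels of the cells were first set against the genes. The cDC1 array had higher levels than every cDC2 array for 9 of the 10 genes, and for Gpr33 it lay above all 4 resting arrays and 1 of the 4 activated ones. All 10 genes read above both resting WT cDC2 arrays, as did 38.1% of all genes tested. Against resting WT cDC2, 8 of the 10 genes were higher in cDC1 by limma, where 7.08% of all genes tested were higher, with 13.6% called in either direction. These genes were picked as cDC1 markers, so this only describes the marker set. The differences were 4.72 ± 0.12 for Cd36, 4.70 ± 0.12 for Xcr1, 4.21 ± 0.11 for Snx22, 3.99 ± 0.31 for P2ry14 and 3.87 ± 0.16 for Naaa (log2, SE; 1 array against 2). Gpr33 stood at 2.60 ± 0.43, Itgae at 0.84 ± 0.13 and Cd8a at 0.70 ± 0.11. Wdfy4 (1.24 ± 0.33, adjusted p = 0.0569 by limma) and Cadm1 (1.13 ± 0.66, adjusted p = 0.314) did not pass. With the replicate number as a block Wdfy4 passed, at 1.41 (adjusted p = 0.00442, where 35% of all genes passed in either direction), with the unnumbered cDC1 array counted in block 1. With a single cDC1 array, its spread was taken to equal that of the cDC2 arrays.

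**Figure D1:**
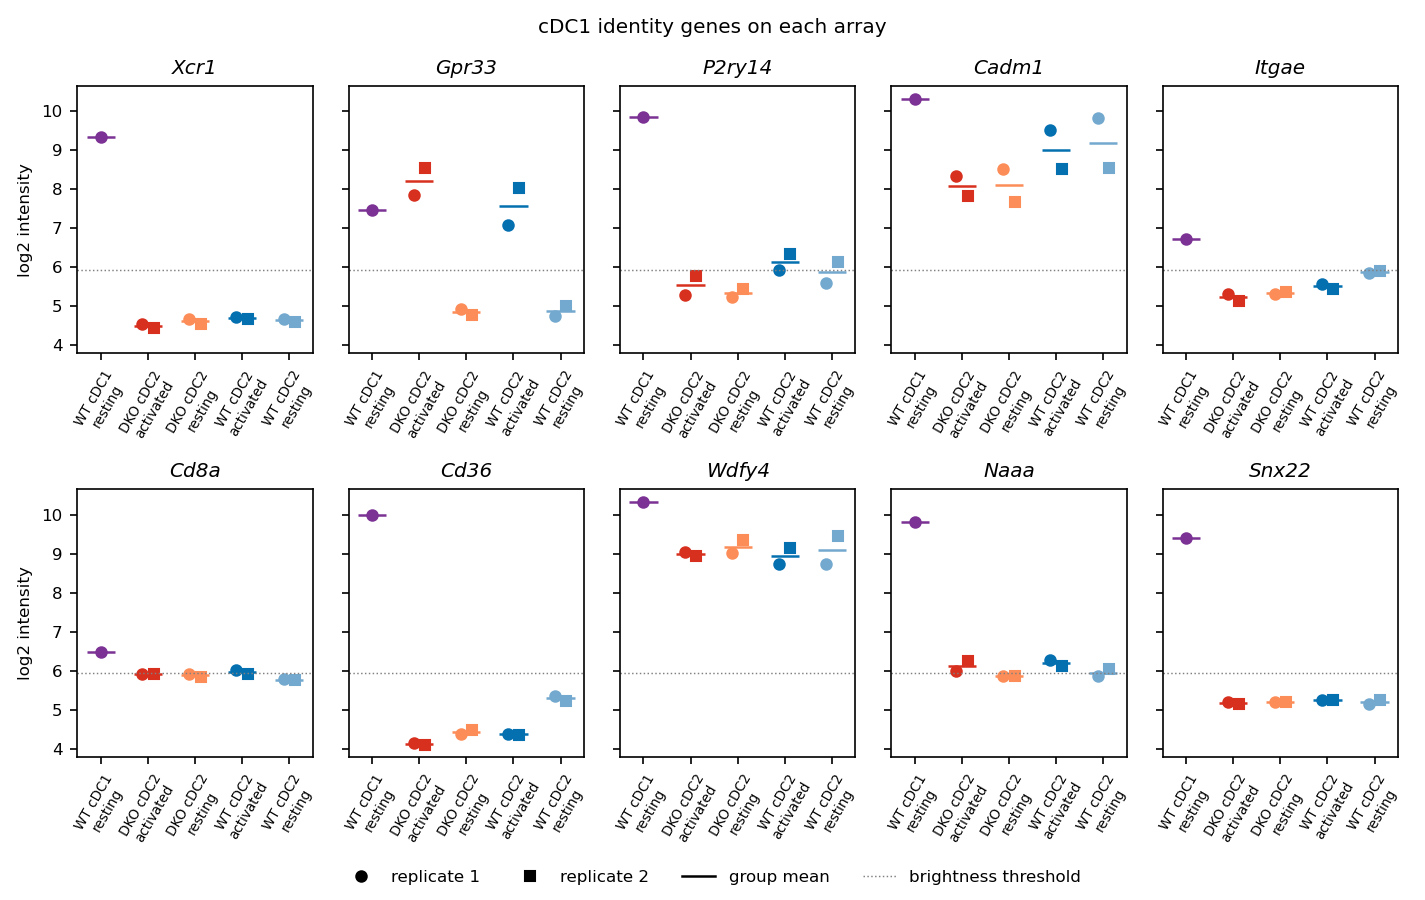
Log2 intensity (y axis) of the 10 cDC1 genes on each of the 9 arrays, by group (x axis), with replicate 1 as a circle, replicate 2 as a square, the group mean as a bar and the brightness threshold of 5.94 as a dotted line. The Gpr33 readings of activated cDC2 lie between 7.09 and 8.56, around the cDC1 reading of 7.46, and Xcr1, Snx22 and Cd36 stay below the threshold on all cDC2 arrays.

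The gene of the group that cDC2 gained with IFN-gamma and LPS was Gpr33, an orphan receptor related to chemoattractant receptors. It rose in both genotypes and came to the range of the cDC1 array. Cd36 passed as lower in activated than in resting WT cells, a difference between dim readings of a gene that entered the test through the cDC1 array. Xcr1 and Snx22 were dim on all 8 cDC2 arrays. In WT cDC2, 1 of the 10 genes passed as higher and 1 as lower, against 3.97% of all genes tested higher and 6.57% lower (10.5% in either direction). In DKO cDC2, 1 passed as higher and 0 as lower, against 5.82% higher and 7.9% lower (13.7% in either direction). The median change of the 10 genes was 0.07 in WT and -0.02 in DKO cells, beside -0.07 in WT and -0.09 in DKO cells for all genes tested. Counting only whether the arrays overlap, 4 genes lay higher and 2 lower in WT cells (19.9% and 36.4% of all genes did), and 2 higher and 2 lower in DKO cells (21% and 39.3%). Among these were Snx22, Itgae, Cd36 and Xcr1, which entered the test through the cDC1 array, so the counts are not set against the shares.

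Gpr33 read 7.85 and 8.56 (log2 intensity, replicates 1 and 2) in activated DKO cDC2, against 4.92 and 4.78 in resting DKO cDC2. It read 7.09 and 8.04 in activated WT cDC2, against 4.73 and 4.99 in resting WT cDC2. All 4 activated arrays were above all 4 resting arrays, which were dim, and the cDC1 reading of 7.46 lay inside the activated range. The difference was 3.36 ± 0.35 in DKO cells (limma, adjusted p = 0.00479) and 2.70 ± 0.35 in WT cells (adjusted p = 0.0114), the 25th and 29th largest increases of the 10728 genes. The DKO call held in all 14 alternative settings (3.00 to 3.71, highest adjusted p 0.0485). The WT call was lost without activated WT replicate 2 (2.23, adjusted p = 0.0595) and without resting WT replicate 1 (2.58, adjusted p = 0.0703).

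The rise of Gpr33 in DKO cells minus that in WT cells was 0.65 ± 0.49 (95% interval -0.54 to 1.85, adjusted p = 1.00 by limma). By that interval a rise in DKO cells smaller by 0.54 or larger by 1.85 on the log2 scale is compatible with these arrays. With the replicate number as a block the interval was -0.16 to 1.47. No gene of the array passed this interaction test (0%), and 121 had an unadjusted p under 0.05. Between activated groups alone, Gpr33 was 0.64 ± 0.35 higher in DKO than in WT cells (adjusted p = 0.932), and the arrays overlapped, 7.85 and 8.56 against 7.09 and 8.04. In same-numbered pairs both differences were above 0, at 0.76 and 0.52. With the replicate number as a block the SE was 0.24, and the difference did not pass (limma, adjusted p = 0.297).

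Over the 8 cDC2 arrays, the 3 genes whose levels were most like those of Gpr33 were Dll4 (Pearson r = 0.996), Gmeb2 (0.995) and Il12rb2 (0.993). The 8 points share 2 states and 2 genotypes, so these values are a description. Dll4 encodes a Notch ligand and Il12rb2 a chain of the IL-12 receptor. Unlike Gpr33, Dll4 read 5.92 on the cDC1 array, below all 4 cDC2 group means (7.48 to 10.7).

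**Figure D2:**
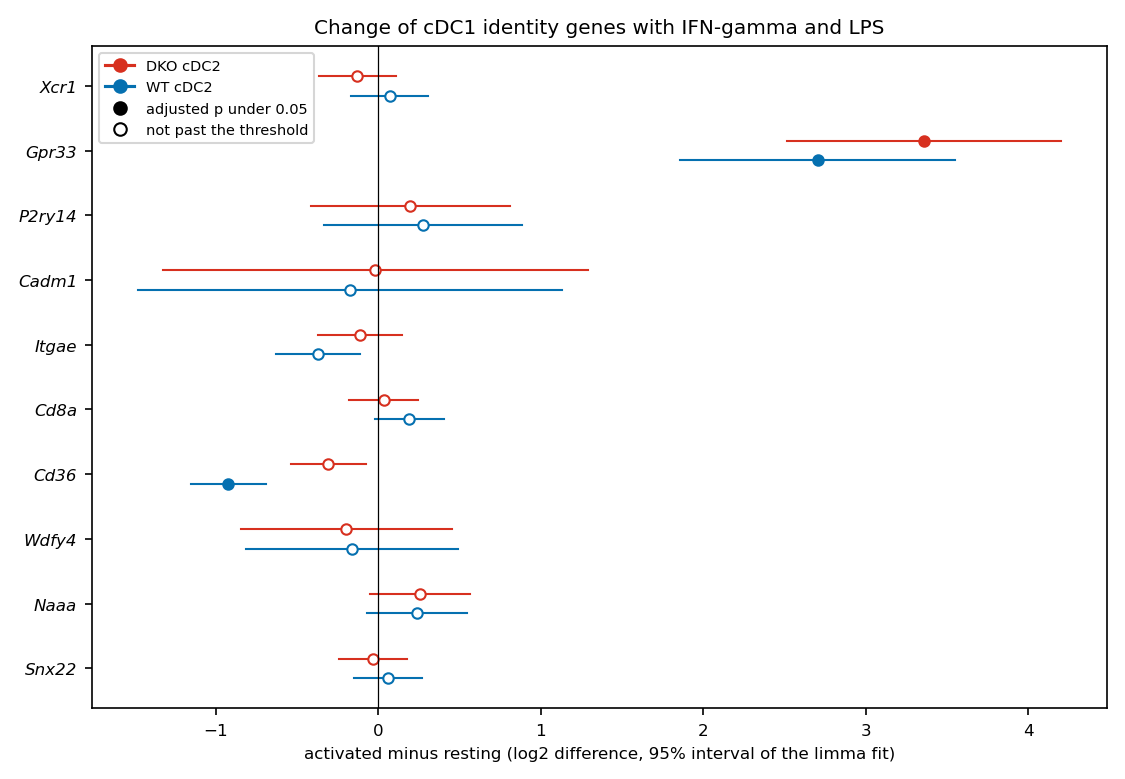
Activated minus resting (log2 difference, x axis) of each of the 10 cDC1 genes (y axis) in DKO and WT cDC2, with the 95% interval of the limma fit. Filled points passed adjusted p under 0.05: Gpr33 in both genotypes (3.36 and 2.70) and Cd36 in WT cells (-0.92).

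Xcr1, the receptor of the chemokine XCL1, read 4.42 to 4.73 on the 8 cDC2 arrays, against 9.33 on the cDC1 array. It read 4.55 and 4.42 in activated DKO, 4.67 and 4.55 in resting DKO, 4.73 and 4.67 in activated WT and 4.67 and 4.59 in resting WT cDC2. The highest cDC2 array lay 4.60 below the cDC1 array, and the activation changes were -0.13 ± 0.10 in DKO and 0.07 ± 0.10 in WT cells. Its ligand Xcl1 read 6.13 to 7.84 in cDC2 and 5.36 on the cDC1 array, with no comparison passing.

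P2ry14, a receptor for UDP-glucose, read 5.29 and 5.78 in activated DKO, 5.24 and 5.43 in resting DKO, 5.93 and 6.34 in activated WT and 5.60 and 6.13 in resting WT cDC2. The cDC1 array read 9.85. Activation differences of 0.20 ± 0.25 in DKO and 0.28 ± 0.25 in WT cells did not pass (adjusted p = 0.638 and 0.508 by limma). The DKO arrays were lower than the same-numbered WT arrays in all 4 pairs, and replicate 2 read above replicate 1 in all 4 groups.

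Among the surface proteins, Cd36 had the one activation call, between readings that were all dim. Cd36, a scavenger receptor for lipids and dying cells, read 4.38 and 4.35 in activated WT cDC2, against 5.35 and 5.22 in resting WT cDC2. In DKO cells it read 4.14 and 4.10 when activated, against 4.36 and 4.48 at rest. The resting WT arrays stood above the other 6 cDC2 arrays, all 8 were dim, and the cDC1 array read 10.0. The WT difference was -0.92 ± 0.10 (limma, adjusted p = 0.00707), lost without activated WT replicate 2 (-0.90, adjusted p = 0.0589). The DKO difference was -0.31 ± 0.10 (adjusted p = 0.0819) and passed with the replicate number as a block (adjusted p = 0.0362, where 38% of all genes passed). The differences themselves differed by 0.61 ± 0.13 (unadjusted p = 0.00329), which did not pass after adjustment (adjusted p = 1.00). Fyn, a kinase of the Src family that CD36 can signal through, was bright on every array. It read 11.1 and 10.7 in activated DKO, 10.7 and 9.93 in resting DKO, 11.0 and 11.0 in activated WT and 10.6 and 10.4 in resting WT cDC2, against 9.86 on the cDC1 array, with no comparison passing.

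Cadm1, an adhesion protein that binds CRTAM on T cells, was bright on every cDC2 array. It read 8.35 and 7.82 in activated DKO, 8.51 and 7.69 in resting DKO, 9.52 and 8.52 in activated WT and 9.84 and 8.55 in resting WT cDC2, against 10.3 on the cDC1 array. Replicate 1 stood above replicate 2 in all 4 groups, by 0.91 on average, and the activation differences were smaller than that spread (-0.02 ± 0.54 in DKO, -0.17 ± 0.54 in WT cells). Uchl1 (r = 0.985), Fmnl2 (0.977) and Zfp36 (0.977) had the levels most like those of Cadm1 over the 8 cDC2 arrays, points that share the same replicate numbers. The levels most like those of Cd36 were of Arhgap39 (0.980), Trim39 (0.965) and Itsn1 (0.959). The partner of Cadm1, Crtam, was dim on all arrays and was not tested.

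Itgae, the integrin chain CD103 that pairs with the chain encoded by Itgb7, read 5.32 and 5.12 in activated DKO, 5.30 and 5.37 in resting DKO, 5.57 and 5.44 in activated WT and 5.86 and 5.90 in resting WT cDC2. All cDC2 arrays were dim, and the cDC1 array read 6.72. Activated WT arrays were lower than resting WT arrays by 0.37 ± 0.11 with no overlap, a difference that did not pass (limma, adjusted p = 0.0755) unless the replicate number was a block (adjusted p = 0.0269, where 35.3% of all genes passed). In DKO cells the change was -0.11 ± 0.11 (adjusted p = 0.517). Itgb7 read lower on both activated arrays of each genotype, by 0.87 ± 0.25 in DKO (adjusted p = 0.0695) and 0.66 ± 0.25 in WT cells (adjusted p = 0.141). Cdh1, the E-cadherin ligand of this integrin, was dim and not tested.

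Cd8a, which cDC1 carry as a homodimer, read 5.91 and 5.92 in activated DKO, 5.91 and 5.85 in resting DKO, 6.01 and 5.91 in activated WT and 5.79 and 5.75 in resting WT cDC2, against 6.47 on the cDC1 array. These cDC2 readings lay within 0.26 of each other, near the threshold, and no activation change passed (0.03 ± 0.09 in DKO, 0.19 ± 0.09 in WT cells, adjusted p = 0.825 and 0.201 by limma). Cd8b1, which T cells add to form the heterodimer, was dim on all 9 arrays (4.94 to 5.23). Of 8 T cell markers, 7 were on the array. Cd3e (6.03 to 6.21 in cDC2, 6.12 on the cDC1 array) and Cd5 (6.19 to 6.89 and 7.23) were above the threshold on all 9 arrays, and neither passed a comparison. Cd3d, Cd3g, Cd8b1, Cd6 and Bcl11b were dim throughout. The summed linear intensity of the 7 markers was 314 to 327 in activated DKO and 321 to 353 in resting DKO cDC2. It was 322 to 348 in activated WT and 330 to 360 in resting WT cDC2, against 395 on the cDC1 array.

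Of the proteins inside the cell, Wdfy4 was bright in cDC2 in every state, and Snx22 and Naaa were not. Wdfy4, which cDC1 need to cross-present antigens of other cells, read 9.04 and 8.95 in activated DKO, 9.01 and 9.36 in resting DKO, 8.74 and 9.14 in activated WT and 8.74 and 9.47 in resting WT cDC2, against 10.3 on the cDC1 array. The groups overlapped, and activation differences of -0.20 ± 0.27 in DKO and -0.16 ± 0.27 in WT cells did not pass. Its second cluster read 7.95 to 8.60 on the cDC2 arrays and 8.96 on the cDC1 array.

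Naaa, a lysosomal amidase that breaks down N-acylethanolamines, read 5.99 and 6.24 in activated DKO, 5.87 and 5.85 in resting DKO, 6.26 and 6.11 in activated WT and 5.85 and 6.05 in resting WT cDC2. The cDC1 array read 9.82. Activated arrays were above resting arrays in both genotypes, by 0.26 ± 0.13 in DKO and 0.24 ± 0.13 in WT cells, and neither passed (limma, adjusted p = 0.227 and 0.268). Snx22, a sorting nexin, read 5.14 to 5.25 on the 8 cDC2 arrays and 9.40 on the cDC1 array. With changes of -0.03 ± 0.09 in DKO and 0.06 ± 0.09 in WT cells, Snx22 had its 95% intervals of the activation change within -0.24 and 0.27.

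Without BATF and BATF3, Cadm1, Cd36, Itgae and P2ry14 read lower in cDC2 both at rest and when activated, and whether they passed depended on how replicates were treated. In resting cells 4 genes lay lower without overlap, these 4, and Cd8a lay higher (13.4% and 17.7% of all genes did). In activated cells 6 lay lower, these 4 with Xcr1 and Snx22, and 0 higher (13.5% and 16.4%). Xcr1, Snx22, Cd36 and Itgae had entered the test through the cDC1 array and were dim on all 8 cDC2 arrays. For this reason the counts without overlap are not set against the shares. The activated pairs of Xcr1 differed by -0.19 and -0.25 and those of Snx22 by -0.056 and -0.12. Without the block, 0 of the 10 genes passed in resting cells, 0 in activated cells and 0 in the mean of both states, where 0.0186% of all genes (2 of 10728) passed in each, and 707, 638 and 1157 genes had an unadjusted p under 0.05. With the replicate number as a block, in the mean of both states, 4 of the 10 passed as lower and 0 as higher, where 2.6% of all genes passed as lower and 5.58% in either direction. Of these 4, Cd36 and Itgae were dim on all 8 cDC2 arrays and had entered the test through the cDC1 array, so the count is not set against that share. The median difference over the 10 genes was -0.05 at rest, -0.15 when activated and -0.10 in the mean of both, beside 0.01 in each case for all genes tested.

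Cadm1 had the largest of these differences. In same-numbered pairs, DKO minus WT was -1.17 and -0.71 in activated cells and -1.33 and -0.86 at rest. All 4 DKO arrays lay below all 4 WT arrays, but only just. The highest DKO reading was 8.51 (resting, replicate 1) and the lowest WT reading 8.52 (activated, replicate 2). The mean over both states was -1.02 with an SE of 0.38 without the block (limma, adjusted p = 0.403) and of 0.12 with it (adjusted p = 0.0103). Itgae, dim on all of them, was likewise lower on every DKO than on every WT array, with pair differences of -0.25 and -0.32 in activated cells and -0.56 and -0.53 at rest. Its mean difference was -0.41 ± 0.08 (adjusted p = 0.132, with the block 0.0268). Such a 4 against 4 separation with DKO lower held for 1.19% of all genes. Itgae had entered the test through the cDC1 array, so Cadm1 and Itgae are not set against that share.

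Cd36 and P2ry14 were lower in DKO in all 4 pairs, as were 13.3% of all genes, but their DKO and WT arrays overlapped across states. Cd36 pairs differed by -0.24 and -0.25 in activated cells and by -0.98 and -0.74 at rest. The resting difference of -0.86 ± 0.10 (limma, adjusted p = 0.172) passed with the block (adjusted p = 0.024, where 0.736% of all genes passed). It rests on the same resting WT arrays as the fall of Cd36 with activation in WT cells. The mean over both states was -0.55 ± 0.07 (adjusted p = 0.0684, with the block 0.00949). P2ry14 pairs differed by -0.65 and -0.57 in activated cells and -0.36 and -0.70 at rest, with a mean of -0.57 ± 0.18 (adjusted p = 0.308, with the block 0.0136).

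In the mean of both states, none of these blocked calls held in every case with 1 array left out. Leaving out an array lowers the residual degrees of freedom for all genes. With the block and 1 array left out in turn, a check chosen after the data were seen, Cadm1 and Cd36 passed in 5 of 8 cases, P2ry14 in 4 and Itgae in 0, with adjusted p of 0.0188 to 0.108 over the 4 genes. Without activated WT replicate 1 or replicate 2, 0 of the 10 genes passed. Every such difference stayed below 0, between -0.89 and -1.15 for Cadm1 and between -0.37 and -0.46 for Itgae.

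**Figure D3:**
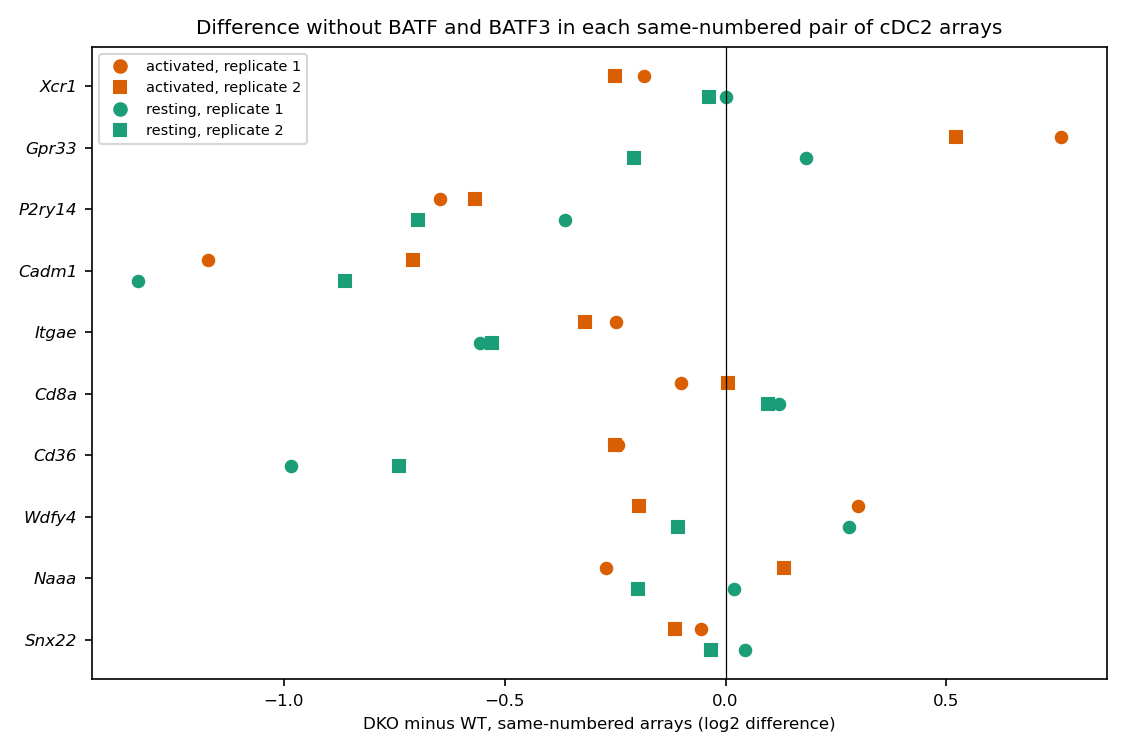
DKO minus WT (log2 difference, x axis) of each of the 10 cDC1 genes (y axis) in the 4 same-numbered pairs of cDC2 arrays, activated in orange and resting in green, replicate 1 as circles and replicate 2 as squares. Cadm1, P2ry14, Itgae and Cd36 lie left of 0 in all 4 pairs, and Gpr33 lies right of 0 in both activated pairs.

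Of the other 6 genes, 0 passed a genotype comparison with or without the block, which in activated cells called 0.569% of all genes. In the mean of both states, Gpr33 stood at 0.31 ± 0.25, Xcr1 at -0.12 ± 0.07, Naaa at -0.08 ± 0.09, Wdfy4 at 0.07 ± 0.19, Snx22 at -0.04 ± 0.06 and Cd8a at 0.03 ± 0.06. The 95% intervals were narrow for Snx22 (-0.19 to 0.11) and Cd8a (-0.12 to 0.18) and wide for Wdfy4 (-0.39 to 0.53). Snx22 was above the threshold on 0 and Cd8a on 1 of the 8 cDC2 arrays, so their narrow intervals describe mostly dim readings.

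Markers of other cells were set beside Cd36 and Itgae. Of 9 macrophage markers, 9 were on the array and 8 were tested, and Mertk was dim on all arrays. Their summed linear intensity was 1424 to 1567 in activated DKO, 1951 to 2238 in resting DKO, 1902 to 1985 in activated WT and 2521 to 2952 in resting WT cDC2, lowest and highest in the same groups as Cd36 and Itgae. The single markers went both ways with activation, 4 up and 4 down in DKO cells and 3 up and 5 down in WT cells, and 1 of them passed (Spic, -1.21 in DKO cells, adjusted p = 0.0302 by limma). In the mean of both states 6 of the 8 were lower in DKO than in WT cells and 0 passed. The complement genes C1qa (-0.65), C1qb (-0.80) and C1qc (-0.53), named after their values were seen, were lower on all 4 DKO arrays than on all 4 WT arrays, while Spic stood at 0.47.

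The 6 markers of plasmacytoid dendritic cells, 5 of them on the array, summed to 377 to 491 in activated DKO, 491 to 692 in resting DKO, 465 to 590 in activated WT and 808 to 978 in resting WT cDC2. Ccr9 was the one that passed with activation (-1.95 in DKO, -2.09 in WT cells, adjusted p = 0.034 and 0.0355 by limma), while Ly6d was dim on all 9 arrays and Siglech on 8 of them. Monocyte markers (6 of 7 on the array) summed to 932 to 1086 in activated DKO, 1040 to 1118 in resting DKO, 1186 to 1366 in activated WT and 1017 to 1532 in resting WT cDC2. Activated and resting ranges overlapped in each genotype, while activated DKO lay below activated WT cells. Single markers moved in opposite directions. By limma, Fcgr4 passed as higher with activation (means 5.28 to 7.21 in DKO, 6.14 to 8.66 in WT cells). Treml4 passed as lower (8.97 to 7.96 in DKO, 9.03 to 7.99 in WT cells). Neutrophil markers (5 of 5) summed to 556 to 747 in activated DKO, 619 to 666 in resting DKO, 545 to 624 in activated WT and 533 to 626 in resting WT cDC2, overlapping in every comparison. Platelet markers, which matter for Cd36, summed to 168 to 203 over all cDC2 arrays (4 of 5 on the array), and erythroid markers, none of them above the threshold, to 59.6 to 66.4 (2 of 5). The part of these cells in the differences was not tested, and in bulk samples fewer cells of a type and less RNA per cell cannot be told apart.

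A further 20 genes known from cDC1 gave the wider picture, with 19 on the array and 16 tested. Against resting WT cDC2, 8 of the 16 were called higher in cDC1 by limma (7.08% of all genes tested). Clec9a, Gcsam, Rab7b, Plpp1, Gpr141b and Hepacam2 passed the filter through the cDC1 array alone. Their higher level in cDC1 was thus fixed by the filter, and their differences among cDC2 groups are between dim readings. With activation, 1 of the 16 rose in each genotype and none fell. Of all genes tested, 5.82% rose and 7.9% fell in DKO cells, and 3.97% rose and 6.57% fell in WT cells. That gene was Ifi205, an interferon-inducible gene, which read 11.7 and 11.4 in activated DKO, against 9.57 and 8.84 in resting DKO cDC2. In WT cells Ifi205 read 11.9 and 11.7 when activated, against 9.97 and 10.8 at rest. The differences were 2.37 ± 0.33 in DKO (limma, adjusted p = 0.00966) and 1.45 ± 0.33 in WT cells (adjusted p = 0.0448), and unlike Gpr33 it was already bright at rest. On the cDC1 array Ifi205 read 9.78, below both resting WT and above both resting DKO cDC2 arrays, so it was not a cDC1-high gene in these data.

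Btla, an inhibitory receptor, and Ly75, the uptake receptor DEC-205, read higher on all activated arrays but did not pass in the fit without the block. For Btla the differences were 1.43 in DKO (adjusted p = 0.0584) and 1.42 in WT cells (adjusted p = 0.0686). For Ly75 they were 1.23 in DKO and 1.30 in WT cells. Clec9a, the cDC1 receptor for dead cells, stayed dim at 3.64 to 4.32 on all cDC2 arrays, against 8.67 on the cDC1 array. In the genotype comparisons 0 of these 16 genes passed, the smallest p in the mean of both states being that of Ifi205 (-0.70 ± 0.23, adjusted p = 0.327).

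The targeted genes read lower on all DKO arrays: Batf 5.44 and 5.31 in activated DKO and 5.40 and 5.44 in resting DKO, against 7.26 and 9.07 in activated WT and 6.74 and 7.37 in resting WT cDC2. Batf3 read 6.65 and 6.90 in activated DKO and 6.43 and 7.17 in resting DKO, against 8.56 and 9.92 in activated WT and 7.71 and 7.58 in resting WT cDC2. Without the block, neither passed (limma, mean of both states -2.21 ± 0.39 and -1.66 ± 0.32, adjusted p = 0.126 and 0.148). Values with the block are not given for Batf and Batf3. Their result is therefore not comparable with the blocked calls of Cadm1, Cd36, Itgae and P2ry14. Which exons the deletions and the probes cover is not given in the sources used here.

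Irf8, the factor that cDC1 development rests on, rose with activation to 12.3 and 11.7 in DKO, against 8.46 and 7.64 in resting DKO cDC2 (3.92 ± 0.33, limma, adjusted p = 0.00314). In WT cells it rose to 12.1 and 11.7, against 8.06 and 7.65 at rest (4.04 ± 0.33, adjusted p = 0.00375). All 4 activated arrays were above the cDC1 array, which read 9.94. Irf4, the counterpart factor of cDC2, read 10.4 to 11.0 in activated and 9.37 to 10.0 in resting cDC2, against 5.13 on the cDC1 array, and its rise passed in DKO (1.19 ± 0.23, adjusted p = 0.0227). Id2 read 10.1 to 10.6 in all cDC2 groups. Of the 15 lineage factors, 4 rose and 1 fell in DKO cells (5.82% and 7.9% of all genes did), and 3 rose and 1 fell in WT cells (3.97% and 6.57%). Tcf4 (2.20 in DKO, 1.47 in WT cells) and Batf2 (1.56 in DKO, 1.28 in WT cells) were among those that rose, and Spi1 (-0.93 in DKO, -0.78 in WT cells) fell.

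**Figure D4:**
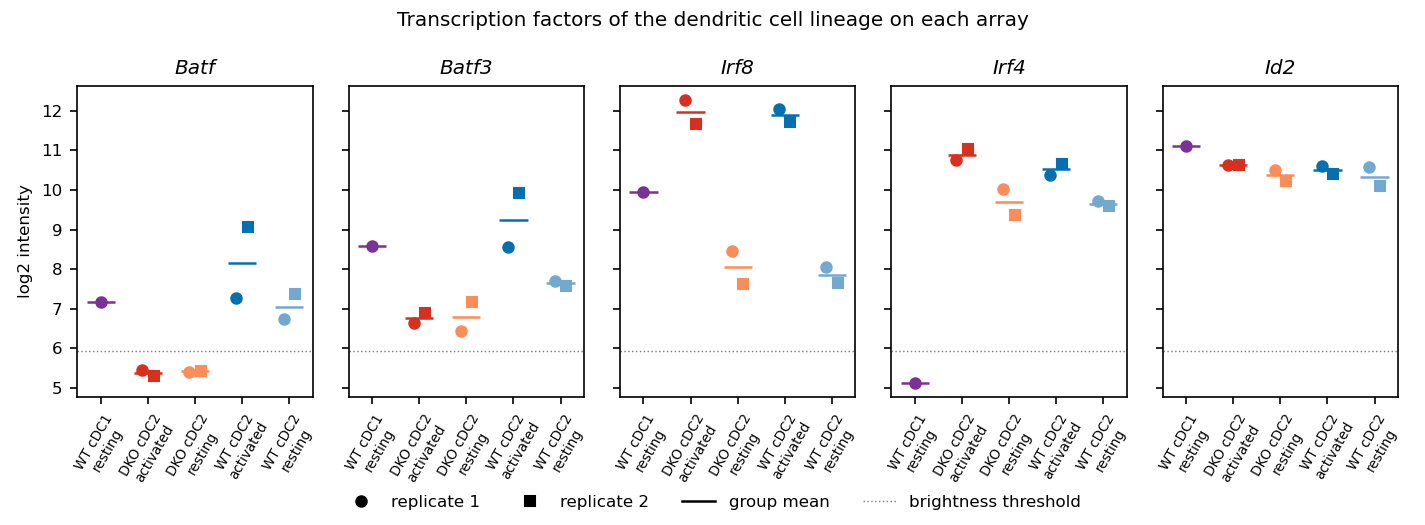
Log2 intensity (y axis) of Batf, Batf3, Irf8, Irf4 and Id2 on each array by group (x axis), with replicates as circle and square, group means as bars and the brightness threshold of 5.94 as a dotted line. Irf8 reads 11.7 to 12.3 on the activated arrays, above the cDC1 reading of 9.94, while Batf lies below the threshold on all 4 DKO arrays.

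Among genes that mark cDC2 itself, T-bet rose and several surface receptors fell. Of 18 listed, 13 were tested, and with activation 1 rose and 6 fell in DKO cells (5.82% and 7.9% of all genes), and 1 rose and 5 fell in WT cells (3.97% and 6.57%). Tbx21, encoding T-bet, rose by 3.68 ± 0.35 in DKO and 3.85 ± 0.35 in WT cells (limma, adjusted p = 0.00429 and 0.00509). Csf1r, the receptor of M-CSF, fell by 1.18 in DKO and 0.99 in WT cells, and Cd300a fell by 1.27 in DKO and 1.10 in WT cells. The median change of the 13 genes was -0.77 in DKO and -0.72 in WT cells, beside -0.09 in DKO and -0.07 in WT cells for all genes tested. In the genotype comparisons 0 of the 13 passed, the smallest p in the mean of both states being that of Clec12a (-0.93 ± 0.17, adjusted p = 0.129), a gene that in these data read higher in cDC1 (11.3) than in any cDC2 array (5.64 to 7.17). Of 15 genes of dendritic cell activation, 12 rose in DKO (5.82% of all genes) and 9 in WT cells (3.97%) and none fell, with Il6 rising by 4.33 ± 0.16 in DKO and 3.81 ± 0.16 in WT cells (adjusted p = 0.00024 and 0.000518). Resting is the word of the titles, and some of these genes were already bright at rest. Resting DKO and WT means were 12.3 and 12.2 for Ccr7, 12.4 and 11.8 for Fscn1 and 12.1 and 12.3 for Cd86. For Il6 they were dim, at 5.25 and 5.70. Ccr7 and Fscn1 did not pass with activation in either genotype.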

How the data were processed

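Sorted spleen cDC gave 9 samples, 1 array each. Biotinylated cDNA was made with a kit for picogram amounts of RNA, per the labels' protocols, and Expression Console with RMA produced the values, per the submitters' processing notes, without versions. The authors deposited intensity values that are linear, 1 for each cluster on each array. Between arrays, log2 values of equal rank lay at most 0.31 apart, so a difference in total RNA between groups would not be visible.

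Each deposited value was converted to log2. Of 28853 clusters, 21789 had 1 symbol in the platform annotation, 1621 several and 5443 none, and only the first kind was used. For 999 genes with several clusters the one with the highest mean was taken. Groups and replicate numbers come from the titles. The test was limma 3.58.1 (lmFit, eBayes, two-sided) in R 4.3.3, with 9 arrays in a single fit, a mean per group and 4 residual degrees of freedom. The Benjamini-Hochberg adjustment ran over 10728 genes, with 0.05 as the threshold. The fit was tested on simulated data.

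Same-numbered arrays deviated together from their group means (r = 0.454 to 0.695 across genes over the 6 pairs of cDC2 groups, the same value for both numbers). The numbers in the titles were therefore treated as pairing, and values with the number as a block stand beside results they change. Alternatives were the block, no brightness filter, quantile normalization, an intensity trend, the mean of a gene's clusters, the cDC2 arrays alone and leaving out each cDC2 array.

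Every gene of the set and of its binding partners is named. Of each other list, up to 4 members that passed with the largest change could be named, or where none passed up to 2 with the smallest p, and Batf, Batf3, Irf8, Irf4 and Id2 always. Btla, Ly75, Clec9a, the C1q genes, Clec12a as a cDC1-high gene and the resting levels of Ccr7, Fscn1 and Cd86 were singled out after their values were seen. Genes most like a member (for members whose cDC2 group means span more than 1) are those with the highest Pearson r. The genes and lists were chosen with earlier results of these data known.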

Additional observations from a re-analysis of the deposited data

How the results depend on the processing

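The 70 differences of the 10 genes were recomputed under the alternatives. The 4 blocked calls in the mean of both states were also recomputed in the leave-one-out check chosen after the data were seen. Of 1002 values in all, 936 kept direction and side of the threshold, 23 passed newly, 4 no longer passed and 39 changed sign. Of the sign changes, 0 had a call in either fit. The 23 include the passes of that later check, 5 for Cadm1, 5 for Cd36 and 4 for P2ry14. The replicate block gave 3 calls among the 10 genes in place of 2 in WT activation, 2 in place of 1 in DKO activation, 1 in place of 0 in resting DKO against WT, 4 in place of 0 in the mean of both states and 9 in place of 8 for cDC1. It raised the calls over all genes to 3791 from 1131 in WT activation, 4080 from 1472 in DKO activation, 79 from 2 at rest, 61 from 2 in activated cells, 599 from 2 in the mean of both states and 3751 from 1464 for cDC1. It changed no call of the 10 genes in the interaction or in activated DKO against WT. Leaving out an array gave 0 to 2 of the 10 genes in WT activation, 1 in DKO activation, 0 in the interaction, at rest and in activated cells, 0 in the mean of both states (0 to 3 with the block), and 7 to 9 for cDC1. Over all genes it gave 63 to 696 calls in WT activation, 217 to 1276 in DKO activation, 0 to 6 at rest, 0 in activated cells, 2 to 4 in the mean of both states and 798 to 1155 for cDC1. An intensity trend gave 1 call in place of 2 at rest. Sign changes lay in these leave-one-out ranges (log2). In WT activation they were Cadm1 -0.82 to 0.48, Wdfy4 -0.53 to 0.21. In DKO activation they were Cadm1 -0.43 to 0.40, P2ry14 -0.048 to 0.44, and quantile normalization gave Cadm1 0.038. In the interaction they were Cadm1 -0.49 to 0.80, Wdfy4 -0.40 to 0.33, Naaa -0.10 to 0.14, P2ry14 -0.34 to 0.19. In DKO against WT they were Xcr1 -0.080 to 0.042, Wdfy4 -0.28 to 0.45, Naaa -0.19 to 0.0093, Snx22 -0.046 to 0.057, Gpr33 -0.14 to 0.12 at rest, Wdfy4 -0.15 to 0.25, Naaa -0.19 to 0.056, Cd8a -0.10 to 0.0025 in activated cells and Wdfy4 -0.12 to 0.25 in the mean of both states. Leaving out an array lowers the residual degrees of freedom. The cause of the other shifts was not tested.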
